A study of Mus musculus with 4 samples.

Results

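The mitochondrial carrier family is the set of membrane proteins encoded by the Slc25 genes, and it was examined here as the 44 genes whose platform symbol starts with Slc25a, out of 18193 genes tested. They were found as all probe sets (groups of short array probes that report 1 transcript) that the platform annotation gave to a single such symbol, 93 of them, and each gene was represented by its probe set of highest mean over the 4 arrays. Transcript levels were measured in heart with Affymetrix 3' expression arrays. The knock-in group was 2 heart samples of mice labelled GSK-3beta S9A, aged 3.5 months, in which serine 9 of the kinase is replaced by alanine (Ser9Ala). The wild-type group was 2 heart samples aged 3.6 months. All samples were labelled strain C57B6 and taken at baseline, and no label says if the 2 samples of a genotype were taken from 2 mice.

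Mitochondrial carriers sit in the inner mitochondrial membrane and exchange nucleotides, fatty acyl-carnitines, amino acids, carboxylates, phosphate and cofactors between the cytosol and the matrix, to which that membrane is otherwise closed. The heart depends on them because it makes nearly all of its ATP in mitochondria: ATP leaves through the adenine nucleotide translocases, phosphate enters through the phosphate carrier, long-chain fatty acids enter as acylcarnitines, and reducing power from glycolysis enters through the malate-aspartate shuttle. GSK-3beta is a kinase that insulin signalling switches off through phosphorylation of serine 9, and the alanine cannot be phosphorylated.

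Values are log2 RMA signals, in which a difference of 1 is a doubling, and array medians lay between 5.97 and 6.04. The heart label was borne out by its markers, since all 8 heart muscle markers examined (Myh6, Actc1, Tnnt2, Tnni3, Pln, Ryr2, Actn2 and Myl2) were above the median signal of all genes and differed between groups by at most 0.09. In bulk tissue, fewer cells of a type and less RNA per cell cannot be told apart. Differences are knock-in minus wild-type and were tested with limma over all genes, with Benjamini-Hochberg adjustment and a threshold of 0.05. At that threshold 0.0055% of all genes were called, and no Slc25a gene was among them (the lowest adjusted p from limma was 0.354). An unadjusted limma p under 0.05 was reached by 6 of the 44, or 13.6%, against 7.39% of all genes and 9.73% of genes above the median signal, which 34 of the 44 were. Of these 6, 4 were higher in knock-in hearts, where the share of all genes was 4.4%, and 2 were lower, where it was 2.99% (6.07% and 3.66% of genes above the median signal). Without knock-in 2 the 6 became 2.

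The carriers differed in both directions, by up to 0.56 in size. Of the 44 genes, 27 were higher in knock-in hearts, or 61.4%, against 50.1% of all genes and 57.1% of genes above the median signal. Of the 44, 16 were lower and 1 was equal, and 20 differed by less than 0.1. The median size of the difference was 0.12, beside 0.092 for all genes and 0.098 for genes above the median signal. The signed median difference was 0.06, beside 0.00024 for all genes and 0.02 for genes above the median signal. The split was 34 higher (77.3%) and 10 lower with each array centred on its median, where 62% of all genes were higher. Centring raised the median difference of all genes to 0.04. With the probe sets of each gene averaged, the split was 22 higher and 21 lower, with a median difference of 0.0051. In that setting 47.3% of all genes were higher. The arrays of the groups did not overlap in 22 of the 44, or 50%, against 36.5% of all genes. Both knock-in arrays lay above both wild-type arrays in 17 (19.6% of all genes, 26.7% of those above the median signal) and below both in 5 (17% of all genes, 17.2% of those above the median signal). By class of substrate, the medians were 0.06 for 12 nucleotide carriers, 0.13 for the 1 carnitine carrier, 0.12 for 9 amino acid carriers and -0.0018 for 22 other carriers. Slc25a29 was also once described as a carnitine carrier, and with it in that class the medians were 0.094 for 2 carnitine carriers and 0.15 for 8 amino acid carriers. With averaged probe sets the medians were -0.029 for nucleotide and 0.043 for amino acid carriers. The classes were not tested against each other.

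**Figure D1:**
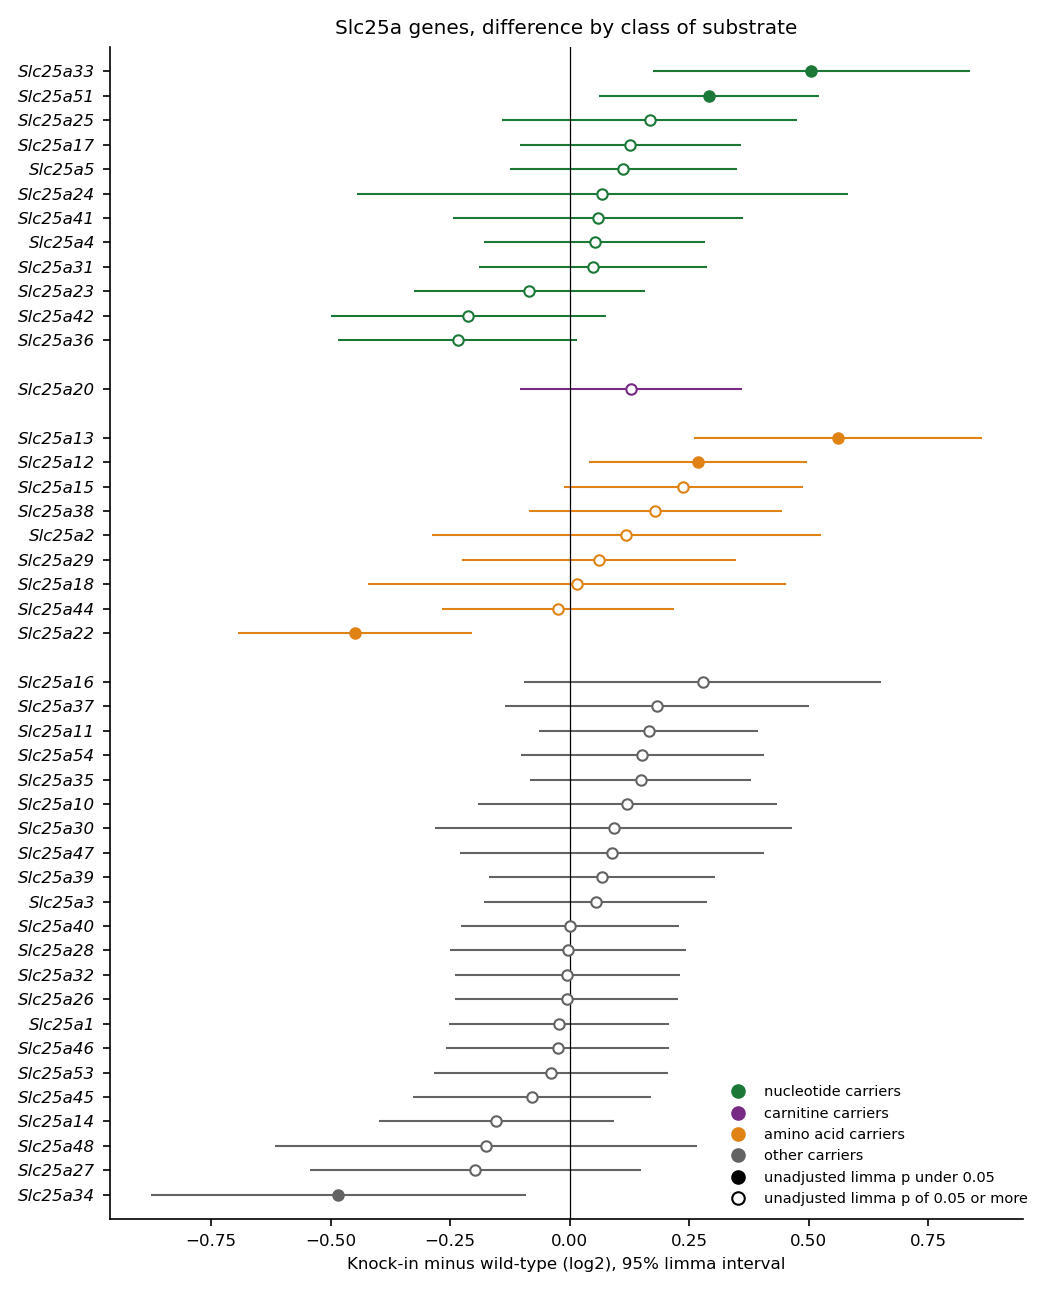
Knock-in minus wild-type difference on the log2 scale (horizontal axis) for each of the 44 Slc25a genes, grouped and coloured by class of substrate, with the 95% interval from limma as a bar. Filled points mark the 6 genes with an unadjusted limma p under 0.05, of which Slc25a13, Slc25a33, Slc25a51 and Slc25a12 lie right of 0 and Slc25a22 and Slc25a34 left of it.

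The amino acid carriers held the highest difference of the family and one of the lowest. Slc25a13 encodes citrin, which exports aspartate from the matrix in exchange for glutamate and is the main isoform of liver. Its signal was 11.39 and 11.67 in knock-in hearts, against 10.95 and 10.99 in wild-type hearts. Both knock-in arrays were above both wild-type arrays, and knock-in 2 was the highest. The means were 11.53 ± 0.20 in knock-in hearts and 10.97 ± 0.03 in wild-type hearts (SD, n = 2 each), a difference of 0.56 ± 0.12 (standard error) or 1.47-fold, with an unadjusted p of 0.00361 and an adjusted p of 0.354 from limma. Slc25a12 encodes aralar, the aspartate/glutamate carrier of muscle and brain. Its signal was 11.58 and 11.59 in knock-in hearts, against 11.31 and 11.33 in wild-type hearts, so that the arrays of each group nearly coincided and the groups lay apart. The difference was 0.27 ± 0.09 or 1.20-fold (unadjusted p = 0.0280, adjusted p = 0.587, limma). It was 0.043 (unadjusted limma p of 0.654) with averaged probe sets, and with any 1 array left out the unadjusted limma p was 0.0517 to 0.113.

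The promoters of these aspartate/glutamate carriers are shown because they are the only members of 1 subclass that both had an unadjusted p under 0.05 in 1 direction. Each is the 250 bases before the RefSeq start of the gene on the minus strand of build GRCm38.p6, 5′ to 3′, at chr2:71367756-71368005 for Slc25a12 and chr6:6217174-6217423 for Slc25a13. Capitals mark the letters CACGTG, the E-box to which the clock proteins CLOCK and BMAL1 and other basic helix-loop-helix factors can bind.
Slc25a12: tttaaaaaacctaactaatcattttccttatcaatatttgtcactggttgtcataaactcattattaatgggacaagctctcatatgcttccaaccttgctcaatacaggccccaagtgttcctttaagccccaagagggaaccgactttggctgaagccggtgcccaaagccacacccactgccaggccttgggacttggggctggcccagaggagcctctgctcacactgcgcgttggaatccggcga
Slc25a13: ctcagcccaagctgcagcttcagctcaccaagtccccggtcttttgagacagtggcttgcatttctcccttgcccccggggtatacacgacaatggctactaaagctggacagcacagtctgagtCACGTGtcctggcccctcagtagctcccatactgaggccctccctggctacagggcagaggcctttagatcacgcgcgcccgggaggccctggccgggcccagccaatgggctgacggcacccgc
The E-box occurred once before Slc25a13, its first base 125 bases before the start, and not in the window of Slc25a12. G and C made up 62.8% of the Slc25a13 window and 49.6% of the Slc25a12 window, where the median of all windows was 52.4%. Promoter windows were found for 34 of the 44 genes, a set not filtered on signal that held genes below the median, such as Slc25a31. CACGTG, which reads the same on both strands, occurred in the windows of 7 (20.6%), namely Slc25a1, Slc25a13, Slc25a14, Slc25a15, Slc25a31, Slc25a33 and Slc25a36. The share was 6.86% of all RefSeq genes and 10.6% of genes above the median signal here. These 7 did not share a direction, since Slc25a13, Slc25a33 and Slc25a15 were higher in knock-in hearts and Slc25a36 and Slc25a14 lower. The GC box, GGGCGG on either strand, was in the windows of 25 of the 34 (73.5%), compared with 66.1% of genes above the median signal. CCAAT, on either strand, was in 17 of the 34 (50%), compared with 39.4%, and TATAAA, on either strand, in 1 (2.94%), compared with 7.94%. A match of letters is not evidence of binding.

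Slc25a22 went the other way. It encodes a carrier that brings glutamate into the matrix together with a proton. Its signal was 10.70 and 10.61 in knock-in hearts, against 11.15 and 11.06 in wild-type hearts. Both knock-in values were below both wild-type values, and the gap between the groups was wider than the distance between the arrays of either group. The means were 10.66 ± 0.07 in knock-in hearts and 11.11 ± 0.07 in wild-type hearts (SD, n = 2 each), a difference of -0.45 ± 0.10 or 1.36-fold lower (unadjusted p = 0.00390, adjusted p = 0.354, limma). Its paralogue Slc25a18, the second glutamate carrier, was below the median signal at 5.21 and 5.25 in knock-in hearts, against 5.49 and 4.94 in wild-type hearts, with overlapping groups and a difference of 0.02. Slc25a13 and Slc25a22 were also the 2 members that kept an unadjusted limma p under 0.05 when knock-in 2 was left out, with differences of 0.42 and -0.40.

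The other amino acid carriers had smaller differences. Slc25a15, the ornithine carrier of the urea cycle, was at 8.78 and 8.73 in knock-in hearts, against 8.45 and 8.59 in wild-type hearts, a difference of 0.24 without overlap (unadjusted p = 0.0591, limma). Its second, dimmer probe set differed by -0.21. Slc25a38, which supplies glycine for heme synthesis, was at 9.35 and 9.28 in knock-in hearts, against 9.23 and 9.05 in wild-type hearts, again without overlap, with a difference of 0.18. Slc25a29, a carrier of basic amino acids, differed by 0.06 with overlapping groups, and its 5 probe sets all had positive differences, from 0.06 to 0.25. Slc25a44, a carrier of branched-chain amino acids, differed by -0.02, and the dim ornithine carrier Slc25a2 by 0.12.

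Transcripts of liver moved with the knock-in group, which bears on Slc25a13 and Slc25a15, carriers that liver also expresses. All 10 liver markers examined had higher signal in both knock-in arrays than in both wild-type arrays, with a median difference of 1.38. Their summed linear signal was 1674 and 2884 in knock-in hearts, against 870 and 605 in wild-type hearts. Albumin (Alb) was at 8.58 and 9.66 in knock-in hearts, against 7.01 and 5.54 in wild-type hearts, and 4 of the 10 markers were above the median signal. The liver markers and Slc25a13 were higher in knock-in 2 than in knock-in 1. Wild-type 1 was above wild-type 2 for every liver marker but Fgb, and just below it for Slc25a13. Slc25a15 was lower in knock-in 2 (8.73) than in knock-in 1 (8.78). Its wild-type 1 value (8.45) was below that of wild-type 2 (8.59). Slc25a47, a carrier named after its high expression in liver, was at 7.31 and 7.33 in knock-in hearts, against 7.07 and 7.39 in wild-type hearts, with overlapping groups. The part of liver RNA in these values was not tested. Of the 5 measured adipocyte markers Adipoq and Car3 were higher without overlap, while Retn (0.0073), Cidea (-0.03) and Cidec (-0.08) overlapped. The summed linear signal of the 5, of which Cidea was the brightest, was 1428 and 1661 in knock-in hearts, against 1396 and 1187 in wild-type hearts. The sums of the 5 erythroid markers (659 and 833 in knock-in hearts, against 745 and 580 in wild-type hearts) overlapped. So did those of the 6 skeletal muscle markers (333 and 334 in knock-in hearts, against 364 and 315 in wild-type hearts).

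**Figure D2:**
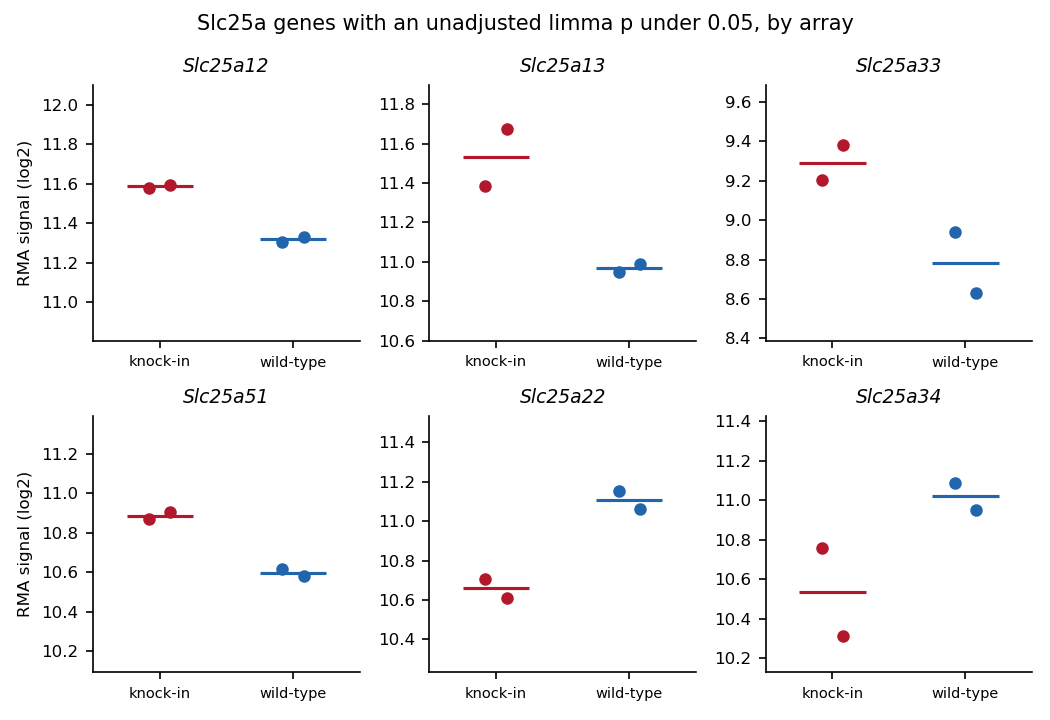
RMA signal on the log2 scale (vertical axis, each panel spanning the same range) of the 6 Slc25a genes with an unadjusted limma p under 0.05, with a point for each array, knock-in left and wild-type right, and a line at the group mean. The groups lie apart in every panel, and, among the knock-in arrays, those of Slc25a34 (10.76 and 10.31) and Slc25a13 (11.39 and 11.67) are the furthest apart.

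Among the nucleotide carriers, the translocases that exchange ADP for ATP differed by at most 0.11 in the probe sets used. Single carriers of pyrimidine nucleotides and NAD had an unadjusted limma p under 0.05, but none passed after adjustment. Slc25a4 encodes ANT1, the ADP/ATP translocase of heart and skeletal muscle. Its signal was 14.52 and 14.48 in knock-in hearts, against 14.47 and 14.42 in wild-type hearts, and the difference of 0.05 had a 95% interval from -0.18 to 0.28. All 4 probe sets of Slc25a4 had positive differences, from 0.0082 to 0.21, and none had an unadjusted limma p under 0.05. Slc25a5 encodes ANT2, the translocase of dividing cells. Its signal was 13.56 and 13.54 in knock-in hearts, against 13.39 and 13.48 in wild-type hearts, a difference of 0.11 with a 95% interval from -0.12 to 0.35. Signals this bright lie near the top of the array's range, where differences can be compressed. The 8 probe sets of Slc25a5 all had positive differences, from 0.11 to 0.46, and none had an unadjusted limma p under 0.05. Near-identical copies limit this gene, because Slc25a4 has a closely similar sequence, RefSeq lists Slc25a5 pseudogenes, and the probe set used ends in _x_at, the mark of probes that may bind other transcripts. Slc25a31, the translocase of the male germ line, was among the dimmest members at 3.55 in both knock-in arrays, against 3.45 and 3.55 in wild-type arrays.

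Slc25a33 encodes a carrier that brings pyrimidine nucleotides, UTP foremost, into the matrix, where they serve the synthesis of mitochondrial RNA and DNA. Its signal was 9.20 and 9.38 in knock-in hearts, against 8.94 and 8.63 in wild-type hearts. The groups did not overlap, but the wild-type arrays also lay apart from each other. The difference was 0.51 ± 0.14 or 1.42-fold (unadjusted p = 0.00948, adjusted p = 0.441, limma). Slc25a36, the second pyrimidine nucleotide carrier, had the opposite sign. It was at 9.998 and 9.94 in knock-in hearts, against 10.13 and 10.27 in wild-type hearts, a difference of -0.23 without overlap (unadjusted p = 0.0619, limma), and its other 2 probe sets differed by -0.32 each.

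Slc25a51 encodes the carrier that brings NAD into the matrix, as shown in human cells. Its signal was 10.87 and 10.90 in knock-in hearts, against 10.61 and 10.58 in wild-type hearts, with both knock-in arrays above both wild-type arrays. The difference was 0.29 ± 0.10 or 1.22-fold (unadjusted p = 0.0209, adjusted p = 0.556, limma). The probe sets of this gene disagreed. The second brightest differed by 0.12, and the dimmest was lower in knock-in hearts, at 6.20 and 6.15 against 6.85 and 6.75 in wild-type hearts, a difference of -0.62 with an unadjusted limma p of 0.000992. The direction of Slc25a51 therefore rests on the choice of probe set.

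Slc25a42, which imports coenzyme A, was at 11.09 and 10.85 in knock-in hearts, against 11.22 and 11.14 in wild-type hearts. Both knock-in arrays were below both wild-type arrays, and the difference was -0.21 with a 95% interval from -0.50 to 0.08. It was -0.33 without knock-in 1, -0.092 without knock-in 2 and -0.038 with averaged probe sets, since the second, dimmer probe set differed by 0.14. Slc25a17, a peroxisomal carrier of coenzyme A and other nucleotides, was higher by 0.13 without overlap. Its second, dimmer probe set differed by -0.29, and the difference with averaged probe sets was -0.080. The 4 carriers that exchange ATP-magnesium for phosphate, Slc25a23, Slc25a24, Slc25a25 and Slc25a41, had overlapping groups and differences from -0.08 to 0.17. Among them, Slc25a24 varied most between samples of 1 group, at 6.79 and 7.45 in wild-type hearts.

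The carnitine/acylcarnitine carrier Slc25a20 carries acylcarnitines into the matrix for beta-oxidation in exchange for free carnitine. Its signal was 11.57 and 11.50 in knock-in hearts, against 11.41 and 11.40 in wild-type hearts. Both knock-in arrays were above both wild-type arrays, and the difference was 0.13 with a 95% interval from -0.10 to 0.36 (unadjusted p = 0.229, limma). Its second probe set differed by 0.16. Other genes of the carnitine shuttle and first oxidation step were examined as a list of 5, which did not include Cpt1b. All 5 were lower in knock-in hearts, none with an unadjusted limma p under 0.05. They were led by Cpt1a, which encodes a carnitine palmitoyltransferase of the outer membrane, at 9.65 and 9.74 in knock-in hearts, against 9.86 and 10.02 in wild-type hearts (difference -0.25, unadjusted p = 0.0602, limma). With each array centred on its median 2 of the 5 were higher. The others were Cpt2 (-0.13), Slc22a5 (-0.05), Crat (-0.02) and Acadvl (-0.0068).

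**Figure D3:**
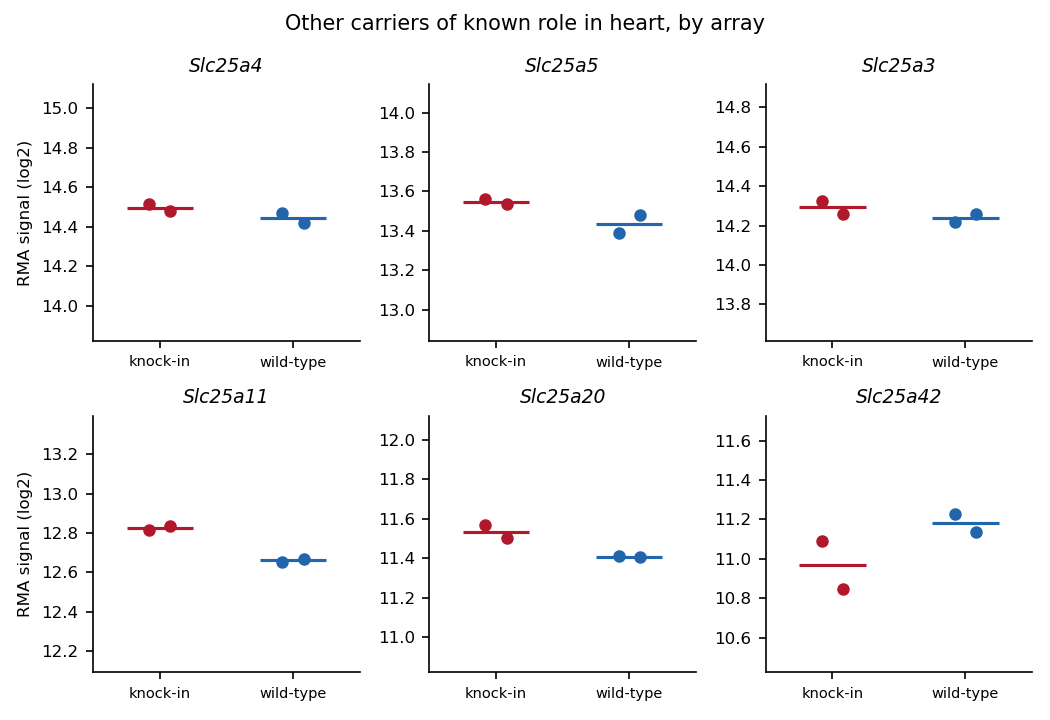
RMA signal on the log2 scale (vertical axis, each panel spanning the same range) of 6 further carriers of known role in heart, with a point for each array, knock-in left and wild-type right, and a line at the group mean. Differences run from -0.21 for Slc25a42 to 0.17 for Slc25a11, and none had an unadjusted limma p under 0.05.

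Of the carriers with other substrates, Slc25a34 was the only one with an unadjusted limma p under 0.05. Its substrate is not settled. Its signal was 10.76 and 10.31 in knock-in hearts, against 11.09 and 10.95 in wild-type hearts. Both knock-in arrays were lower, knock-in 2 the more so, and the difference of -0.48 ± 0.16 or 1.40-fold lower (unadjusted p = 0.0229, adjusted p = 0.562, limma) was -0.26 without knock-in 2 and -0.71 without knock-in 1. Slc25a35, a related carrier whose substrate is likewise unsettled, was higher by 0.15 without overlap.

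The carriers of phosphate, carboxylates and iron differed by less than 0.2 each. Slc25a3 encodes the phosphate carrier that feeds ATP synthase. It was at 14.32 and 14.26 in knock-in hearts, against 14.22 and 14.26 in wild-type hearts, a difference of 0.05 with a 95% interval from -0.18 to 0.29. Slc25a11 encodes the oxoglutarate carrier, which exchanges malate for 2-oxoglutarate. It was at 12.81 and 12.84 in knock-in hearts, against 12.65 and 12.67 in wild-type hearts, where the difference of 0.17 (95% interval from -0.06 to 0.39, unadjusted p = 0.129, limma) was larger than the distance between the arrays of either group. The citrate carrier Slc25a1 and the dicarboxylate carrier Slc25a10 had overlapping groups and differed by -0.02 and 0.12. Of the mitoferrins, which bring iron into the matrix, Slc25a37 was at 8.03 and 8.36 in knock-in hearts, against 8.01 and 8.02 in wild-type hearts, while Slc25a28 differed by -0.0035.

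Slc25a11, Slc25a12 and Slc25a13 are the carriers of the malate-aspartate shuttle, and for each of them both knock-in arrays were above both wild-type arrays. That held for 19.6% of all genes and 26.7% of those above the median signal. Slc25a11 had an unadjusted limma p of 0.129, and the dimmer probe sets of Slc25a12 differed by -0.12 and -0.02. The shuttle's 4 enzymes, the aspartate aminotransferases Got1 and Got2 and the malate dehydrogenases Mdh1 and Mdh2, had overlapping groups and differences between -0.03 and 0.0059. Mdh1, the cytosolic malate dehydrogenase, was at 14.47 and 14.49 in knock-in hearts, against 14.47 and 14.48 in wild-type hearts. These enzymes gave signals near the top of the range, where differences can be compressed.

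None of the remaining carriers had an unadjusted limma p under 0.05. The brain-enriched Slc25a14 and Slc25a27 and the kidney carrier Slc25a30, which resemble uncoupling proteins, differed by -0.15, -0.20 and 0.09, and only Slc25a14 had no overlap. The 4 probe sets of Slc25a27 all had negative differences, from -0.27 to -0.06. The glutathione carrier Slc25a39 was at 12.79 and 12.77 in knock-in hearts, against 12.66 and 12.76 in wild-type hearts, just without overlap, and its paralogue Slc25a40 had the same mean in both groups, 6.78. Among carriers of cofactors, Slc25a26, which imports S-adenosylmethionine, and Slc25a32, which imports folate and FAD, differed by less than 0.01 in size. Slc25a16, also set among the cofactor carriers, was at 7.50 and 7.54 in knock-in hearts, against 7.03 and 7.46 in wild-type hearts. Its groups did not overlap, the wild-type arrays lay far apart, and the difference of 0.28 had an unadjusted limma p of 0.120. Slc25a46, which acts in mitochondrial dynamics at the outer membrane, differed by -0.03. The last 4 carriers of unsettled substrate, Slc25a45, Slc25a48, Slc25a53 and Slc25a54, had differences from -0.18 to 0.15, 3 of them were below the median signal, and only the dim Slc25a54 had no overlap.

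Several genes were read by more than 1 probe set, which gives a check on direction within the same RNA. Of 23 such genes, 11 had all probe sets on 1 side of 0, with 5 of these higher and 6 lower in knock-in hearts, and 12 had probe sets on both sides. Slc25a12 was among the mixed ones, since its dimmer probe sets differed by -0.12 and -0.02. Slc25a13, Slc25a22, Slc25a33 and Slc25a34 had 1 probe set each, so that no second reading was at hand. Over all 93 probe sets, 8 had an unadjusted limma p under 0.05, where the share over all 34945 named probe sets was 6.05%, and none passed after adjustment.

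**Figure D4:**
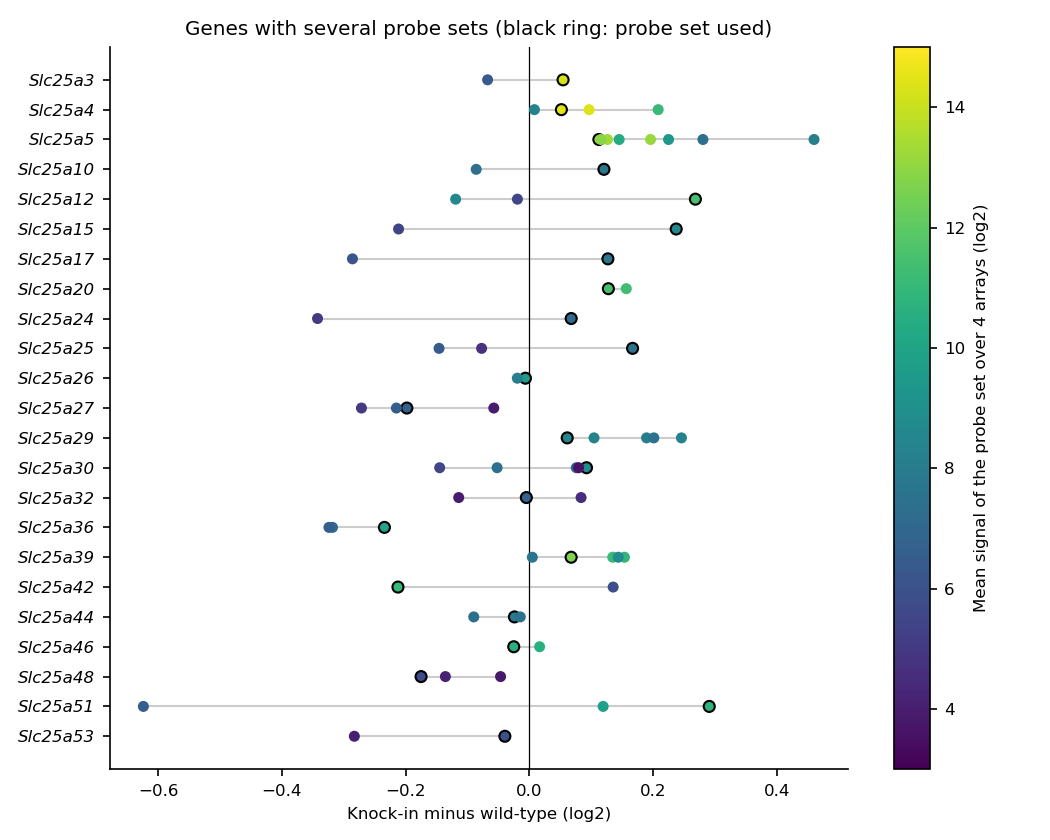
Knock-in minus wild-type difference on the log2 scale (horizontal axis) of every probe set of the 23 Slc25a genes with several probe sets, coloured by mean signal, with a black ring around the probe set used for the gene. The 8 points of Slc25a5 lie right of 0, the 3 of Slc25a36 left of it, and those of Slc25a51 run from -0.62 to 0.29.

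Members of the family that carry other symbols included the largest difference in the family. Ucp3 encodes an uncoupling protein of heart and skeletal muscle. Its signal was 8.79 and 8.71 in knock-in hearts, against 9.82 and 9.75 in wild-type hearts, a difference of -1.03 ± 0.10 or 2.05-fold lower (unadjusted p = 3.2e-05, adjusted p = 0.0724, limma). None of the 44 Slc25a genes differed by as much. Its adjusted limma p was under the threshold in 4 alternatives, at 0.00933 with an intensity trend and robust prior, 0.0341 with centred arrays, 0.0303 after quantile normalization and 0.0346 among genes above the median signal. It was above the threshold in the others, at 0.0885 with averaged probe sets (difference -0.81), 0.0809 with the first-listed probe set, 0.679 with the replicate number as a block and 0.189 to 0.628 with 1 array left out. The brown fat uncoupling protein Ucp1 was dim and overlapped between groups. Of the outer membrane carrier homologues, Mtch2 was at 11.73 and 11.76 in knock-in hearts, against 11.59 and 11.52 in wild-type hearts (difference 0.19, unadjusted p = 0.0951, limma), and Mtch1 differed by -0.05 with overlapping groups.

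Carriers reach the inner membrane through a dedicated route, in which the outer membrane receptors pass them to small chaperones and the TIM22 complex inserts them. Of the 13 measured genes of this route, 12 were higher in knock-in hearts and 1, Agk, differed by -0.0023, with a median of 0.15. All 13 were above the median signal, where 57.1% of genes were higher. With centred arrays 13 were higher, beside 62% of all genes, and with averaged probe sets 11, beside 47.3% of all genes. An unadjusted limma p under 0.05 was found for 3 of the 13, all higher, where 4.4% of all genes and 6.07% of those above the median signal were called in that direction, and none passed after adjustment. With 1 array left out, the unadjusted limma p ran from 0.0171 to 0.0459 for Timm22, from 0.0193 to 0.136 for Tomm22 and from 0.0321 to 0.163 for Timm13, the highest of each without knock-in 2. Timm22, the core of the insertion complex, was at 10.15 and 10.20 in knock-in hearts, against 9.82 and 9.77 in wild-type hearts, a difference of 0.38 ± 0.10 (unadjusted p = 0.00664, limma), or 0.20 (unadjusted p = 0.0614) with averaged probe sets. Tomm22, an outer membrane receptor, was at 11.30 and 11.51 in knock-in hearts, against 11.05 and 11.07 in wild-type hearts, and differed by 0.35. Timm13, a chaperone of the intermembrane space, was at 10.24 and 10.42 in knock-in hearts, against 10.08 and 9.94 in wild-type hearts, and differed by 0.33.

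Other partners differed less. Mpc1, a subunit of the pyruvate carrier, which is not a Slc25 protein, was at 12.97 and 13.00 in knock-in hearts, against 12.65 and 12.80 in wild-type hearts, a difference of 0.25 (unadjusted p = 0.0474, limma, and 0.0328 to 0.164 with 1 array left out). The outer membrane channels Vdac1, Vdac2 and Vdac3 differed by 0.05, 0.14 and 0.11, each without overlap. Of 6 genes that work with the adenine nucleotide translocase, none had an unadjusted limma p under 0.05. They included the mitochondrial creatine kinase Ckmt2 (difference 0.16), the permeability transition regulator Ppif (0.19) and the ATP synthase subunits Atp5a1 and Atp5b (-0.0018 and 0.05).

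**Figure D5:**
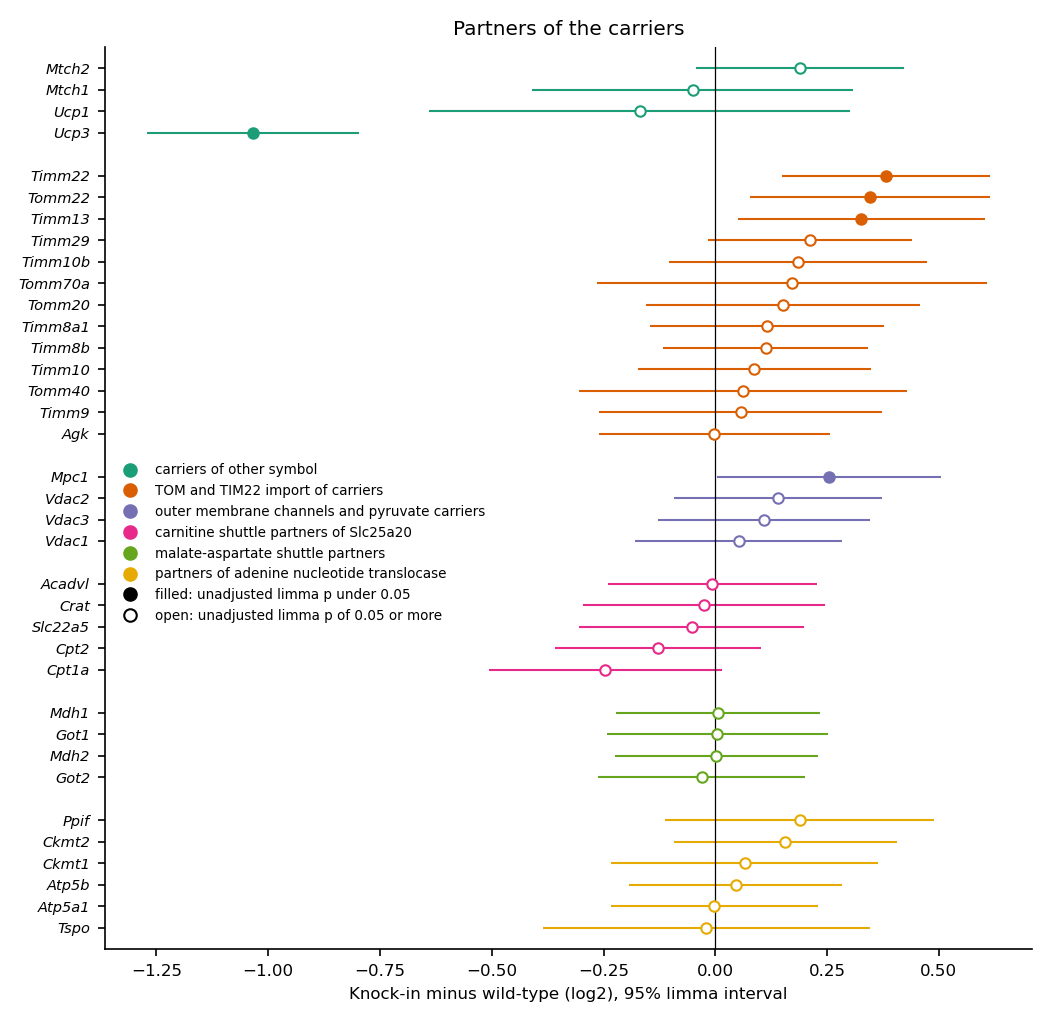
Knock-in minus wild-type difference on the log2 scale (horizontal axis) with the 95% interval from limma for family members of other symbols and for genes that work with the carriers, coloured by list. Filled points had an unadjusted limma p under 0.05 and are Ucp3 (-1.03), Timm22 (0.38), Tomm22 (0.35), Timm13 (0.33) and Mpc1 (0.25).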

How the data were processed

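RNA of 2 knock-in and 2 wild-type heart samples was measured on Affymetrix arrays. The authors deposited expression values on a log2 scale, made with RMA in Affymetrix Expression Console, per the submitters' processing notes. Per the labels, the wild-type scans also serve as other deposited samples and were here normalized with the knock-in arrays alone. RMA gives no detection call, so dim probe sets have values too.

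Of 45101 probe sets, 64 were controls, 34945 had 1 symbol, 932 several (1 of them naming a Slc25a gene) and 9160 none. Symbols were updated by Entrez identifier with RefSeq GRCm38.p6 (34741 matched), and the probe set of highest mean represented each of 18193 genes, without a filter on signal. Groups and replicate numbers came from the sample titles. Differences were fitted with lmFit and eBayes (limma 3.58.1, R 4.3.3), tested two-sided and adjusted by Benjamini-Hochberg over all genes. Standard errors and 95% intervals are limma's, and fold sizes are 2 to the power of the absolute difference. With 2 arrays a group, the smallest p of an exact permutation test is 0.333. P-values rest on the spread between these 4 samples, part of which may be technical. The number of arrays limits the precision. The fit was tested on simulated data.

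Each of the 44 Slc25a genes is accounted for. The value of each array and the difference were given for those with an unadjusted p under 0.05, the 3 of largest difference and the 3 of highest mean. They were also given for Slc25a3, Slc25a4, Slc25a5, Slc25a11, Slc25a12, Slc25a13, Slc25a20 and Slc25a42. Members, classes, partner and marker lists were chosen with earlier results of these data known. Some further family members and marker genes were not analysed here. Replicate numbers were not treated as pairs in the reported fit. Alternatives were a replicate block, trend and robust prior, centring, quantile normalization, genes above the median, averaged or first-listed probe sets, each array left out, other class and family limits, and, chosen after seeing the data, every probe set by itself.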

Additional observations from a re-analysis of the deposited data

How the results depend on the processing

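No Slc25a gene passed under any alternative (0 of 44, of which 6 had an unadjusted limma p under 0.05 in the reported fit). The count was 0 of the 34 tested among genes above the median and 0 of 93 probe sets. With family members of other symbols, 0 of 48 passed in the reported fit. Of these, Ucp3 passed with trend and robust prior, centring, quantile normalization and among genes above the median. Over all genes 1 passed, against 0 with the replicate block, 22 with trend and robust prior, 11 each with centring, quantile normalization and averaged probe sets, 7 among genes above the median, 0 with the first-listed probe set, 0 with every probe set by itself (2114 at an unadjusted p under 0.05), and 0 without any 1 array. Over genes, the correlation of the deviations of knock-in 1 and wild-type 1 from their group means was -0.03. That value shows no strong shift shared by same-numbered arrays, but cannot show if the samples were paired in another way. The block left 6 members at an unadjusted limma p under 0.05. That count was 2 to 7 with 1 array left out, 2 of them without knock-in 2, and 5 to 8 otherwise. Slc25a13 and Slc25a22 kept an unadjusted p under 0.05 in all 11 alternatives, Slc25a33 in 10, Slc25a34 in 8, Slc25a51 in 7 (lower in 1 of these) and Slc25a12 in 6.

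With centring the medians were 0.10 for nucleotide, 0.17 for carnitine and 0.037 for other carriers. With quantile normalization they were 0.090 for carnitine and 0.019 for other carriers, among genes above the median 0.061 for other carriers, and with averaged probe sets -0.029 for nucleotide carriers. The amino acid median was 0.043 with averaged probe sets and 0.18 among genes above the median. With 1 array left out they ran from 0.039 to 0.097 for nucleotide, from 0.014 to 0.26 for amino acid and from -0.014 to 0.024 for other carriers. The cause of these moves was not tested.

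Signs turned in 42 of 474 values of single Slc25a genes, in 22 genes, each with a main difference of at most 0.29 in size. With centring they turned for Slc25a1 (0.016), Slc25a26 (0.032), Slc25a28 (0.035), Slc25a32 (0.034), Slc25a44 (0.015) and Slc25a46 (0.013), and with quantile normalization for Slc25a32 (0.019). With averaged probe sets they turned for Slc25a3 (-0.0065), Slc25a17 (-0.080), Slc25a24 (-0.14), Slc25a25 (-0.019), Slc25a51 (-0.071) and Mtch2 (-0.027), and with the first-listed probe set for Slc25a15 (-0.21), Slc25a24 (-0.34), Slc25a46 (0.017) and Slc25a51 (-0.62). With 1 array left out the differences ran across 0 for Slc25a1 (-0.047 to 0.0025), Slc25a2 (-0.12 to 0.35), Slc25a10 (-0.021 to 0.26), Slc25a18 (-0.26 to 0.29), Slc25a24 (-0.26 to 0.40), Slc25a26 (-0.041 to 0.028), Slc25a28 (-0.072 to 0.065), Slc25a29 (-0.048 to 0.17), Slc25a30 (-0.10 to 0.29), Slc25a31 (-0.0027 to 0.10), Slc25a32 (-0.046 to 0.036), Slc25a41 (-0.084 to 0.20), Slc25a44 (-0.071 to 0.023), Slc25a46 (-0.056 to 0.0053), Slc25a47 (-0.073 to 0.25), Slc25a48 (-0.39 to 0.037), Slc25a53 (-0.11 to 0.027), Ucp1 (-0.40 to 0.061) and Mtch1 (-0.24 to 0.14). Mtch2, Ucp1 and Mtch1 are beside those 22 genes. A group left with 1 array takes its spread from the other group.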

Other observations

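Of the 6 Slc25a genes with an unadjusted limma p under 0.05, 3 lie on chromosome 4 by RefSeq GRCm38.p6, Slc25a33 and Slc25a51, higher in knock-in hearts, and Slc25a34, lower. They are all 3 of the members tested on that chromosome. The share of all 1087 tested genes of chromosome 4 at that level was 9.94%, compared with 6.08% to 9.15% on the other autosomes and 6.81% on the X chromosome. This grouping was noticed after the values were seen and was not tested.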
